A study of Mus musculus with 32 samples.

Results

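The genes described here are the 7 hemoglobin genes Hba-a1, Hba-a2, Hba-x, Hbb-bs, Hbb-bt, Hbb-y and Hbb-bh1, taken by name from the 55385 genes listed for each total RNA-seq library of mouse preimplantation embryos. They were followed from the zygote through the early and the late 2-cell stage, with histone acetylation or deacetylation left active or inhibited. The embryos were wild type and came from in vitro fertilization of B6D2F1/J oocytes with B6D2F1/J sperm, from mice 6 to 8 weeks old. In the first experiment, embryos were cultured from 4 to 20 hpi (hours post fertilization) with 10 µM A-485, which blocks the acetyltransferase activity of CBP and p300, or with DMSO, and were collected as zygotes, early 2-cell or late 2-cell embryos. Late 2-cell embryos of this experiment were therefore collected after A-485 had been washed off. In the second experiment, embryos were cultured from 8 to 28 hpi with 50 nM TSA (trichostatin A), an inhibitor of histone deacetylases, or with DMSO, and were collected at late 2-cell. This gave 8 groups of 2 libraries. In the first experiment, the zygote and late 2-cell libraries were titled and numbered apart from the early 2-cell libraries. The labels do not say whether they were made together. In comparisons between stages, stage and any such difference cannot be told apart. Open chromatin was measured by ATAC-seq in the A-485 experiment only, at late 1-cell and at early 2-cell. The 7 genes were chosen by name with their levels after A-485 and TSA treatment already known, so those levels and folds are a description, and where a member is counted as called there, nothing is read from the call. Tests are given between stages and between controls, whose DMSO-treated libraries also served in the comparisons with the inhibitors.

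Hemoglobin carries oxygen in red blood cells and is built from pairs of alpha-like and beta-like globin chains, each holding a heme group. In the mouse the alpha-like genes lie together on chromosome 11 and the beta-like genes on chromosome 7, and each cluster is read from its own distal enhancers in erythroid cells by factors such as GATA1, TAL1 and KLF1. Hba-x, Hbb-y and Hbb-bh1 serve primitive red cells of the embryo, whereas Hba-a1, Hba-a2, Hbb-bs and Hbb-bt serve definitive red cells of the fetus and adult. No red blood cell exists at the stages studied here.

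In GRCm38 coordinates, Hba-x (ENSMUSG00000055609) lies at chr11:32276400-32278116, Hba-a1 (ENSMUSG00000069919) at chr11:32283511-32284465 and Hba-a2 (ENSMUSG00000069917) at chr11:32296489-32297298, all on the plus strand. The beta-like genes lie on the minus strand, with Hbb-bt (ENSMUSG00000073940) at chr7:103812524-103813996, Hbb-bs (ENSMUSG00000052305) at chr7:103826534-103828096, Hbb-bh1 (ENSMUSG00000052217) at chr7:103841637-103843164 and Hbb-y (ENSMUSG00000052187) at chr7:103851749-103853216. Hba-a1 and Hba-a2 are near-identical copies. Their main transcripts, 699 and 554 bases long, differed at 1 of the bases aligned and matched at 537. Only 91 of the 480 windows of 75 bases (the read length) in the Hba-a2 transcript were absent from that of Hba-a1, or 19.0%. The division of reads between the copies by RSEM is therefore uncertain, and the sum of the pair is given beside each copy.

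The promoters of the members were read from RefSeq (GRCm38.p6), where 6 of the 7 were matched and Hbb-bh1 was not. The 250 bases before the RefSeq starts of Hba-a1 and Hba-a2 were identical over the 247 bases that aligned. RefSeq starts lay inside the genes as given above, so each of the 6 windows of 250 bases held some bases of its gene. The window of Hba-a1 was chr11:32283422-32283671, against a gene start of chr11:32283511. The promoter of Hba-a2 is shown because this copy gave most of the alpha-globin RNA in DMSO- and TSA-treated late 2-cell embryos and had an ATAC-seq peak after A-485 treatment, and that of Hbb-y because it stands for the beta-like genes, which gave no read. Hba-a2 is chr11:32296242-32296488 on the plus strand and Hbb-y is chr7:103853217-103853457 on the minus strand, each ending before the annotated start, with matches to 4 promoter motifs, searched on both strands, in capitals.
Hba-a2: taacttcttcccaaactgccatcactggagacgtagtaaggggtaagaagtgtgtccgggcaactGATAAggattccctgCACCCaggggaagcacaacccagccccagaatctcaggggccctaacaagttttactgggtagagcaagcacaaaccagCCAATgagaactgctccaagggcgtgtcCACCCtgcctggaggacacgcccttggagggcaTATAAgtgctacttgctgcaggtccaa
Hbb-y: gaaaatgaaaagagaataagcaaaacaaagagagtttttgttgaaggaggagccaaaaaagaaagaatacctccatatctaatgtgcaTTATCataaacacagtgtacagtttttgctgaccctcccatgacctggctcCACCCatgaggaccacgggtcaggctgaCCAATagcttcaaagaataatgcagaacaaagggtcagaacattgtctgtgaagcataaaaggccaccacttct

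Over the 250 bases, GATAA, the core of the GATA factor motif, was found in 6 of the 6 members searched and in 22.6% of all 32851 promoters. CACCC, which Krüppel-like factors bind, was found in 6 of 6 and in 52.0%. CCAAT was found in 5 of 6 and in 33.9%, and TATAA in 5 of 6 and in 22.8%. All 4 stood together in 4 of the 6 members (Hba-a1, Hba-a2, Hbb-bs and Hbb-bt) and in 0.968% of all promoters. Hba-x had no CCAAT and Hbb-y no TATAA in this window.

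The total expected count of a library ranged from 13206163 to 32585987 (median 22730518 over 16 libraries), and the 2 libraries of a group correlated across genes with r between 0.924 and 0.974. The labels do not say whether the libraries of a group came from separate cultures, so p-values measure only the spread between these libraries. Of the genes that mark the 2-cell stage, Zscan4f was at 230.72 and 195.56 FPKM in DMSO-treated early 2-cell libraries and at 1.75 and 0.77 FPKM in DMSO-treated zygotes. Arg2 of the same list went against its name, at 33.89 and 27.27 FPKM against 125.02 and 118.02 FPKM. All 10 genes of the list were called lower after A-485 treatment at early and at late 2-cell. In libraries of whole embryos, fewer embryos with an RNA and less of it per embryo cannot be told apart. The late 2-cell A-485 libraries had the lowest totals. Mitochondrial genes held 19.5% and 20.7% of their counts, against 12.3% and 10.5% in their control. After TSA treatment they held 15.5% and 16.3%, against 12.5% and 12.0%.

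All 4 beta-like genes, Hbb-bs, Hbb-bt, Hbb-y and Hbb-bh1, had 0 counts in each of the 16 libraries. A count of 3 in one library, which a count of 0 allows, would be a level of 0.185 to 0.934 FPKM or 0.0921 to 0.227 CPM, depending on gene and library, with counting error only. The beta-like genes were therefore not detectable at this depth before or after either inhibitor. Hba-x, the embryonic alpha-like gene, had 4.00 counts (0.45 FPKM) in the late 2-cell A-485 replicate 2, 1.00 count (0.13 FPKM) in the late 2-cell TSA replicate 1 and 0 in the other 14 libraries. Of the members, Hba-a1 and Hba-a2 thus gave almost all of the counts, with 156 and 668 expected counts over all libraries. Mb, a globin gene outside the members, was at 3.52 and 3.25 FPKM in DMSO-treated zygotes.

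At the zygote stage the alpha pair was at or near 0. DMSO-treated zygotes had 0.50 counts each of Hba-a1 and Hba-a2 (1 read divided between the copies) in replicate 1 and 0 in replicate 2, and A-485-treated zygotes had 0 counts of either copy in both replicates. No member reached the 10 counts over 4 libraries that a test needed. Zygotes thus allowed no comparison of the members after A-485 treatment, and 0.0712% of the 18258 genes tested were called there, 0.00548% higher and 0.0657% lower. A gene was called when its adjusted p from edgeR's quasi-likelihood test was under 0.05, its fold change at least 2 and its mean FPKM at least 1 in either group.

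In DMSO-treated early 2-cell embryos, the level of Hba-a1 was 3.48 FPKM in replicate 1 and 0.91 FPKM in replicate 2, and that of Hba-a2 was 1.23 FPKM and 0.63 FPKM. Replicate 1 was the higher library for both copies, with 26.57 and 9.43 counts against 6.00 and 5.00 in replicate 2. Both libraries lay above both DMSO-treated zygote libraries. The pair summed to 47 counts against 1 count in zygotes, a ratio of CPM (counts scaled to the library total) of 64.1 (95% exact interval 10.96 to 2586, counting error only). Hba-a1 was called higher than in zygotes (log2 fold change 7.36 ± 2.00 SE, adjusted p = 0.00919 by edgeR's quasi-likelihood test), where 26.2% of 20106 tested genes were called, 11.2% higher and 14.9% lower. The fitted change of Hba-a2 was 6.13, with an adjusted p of 0.0579 in the same edgeR test, and with the copies summed the edgeR log2 fold change was 5.75 with an adjusted p of 0.00432. The fitted sizes depend on the prior count, since zygotes were near 0. Both copies reached the 10 counts that a test needed through the early 2-cell libraries alone, so only a rise could be called. Those libraries were also the control of an A-485 comparison known when the genes were chosen. The p-values here are therefore not independent of that choice, and nothing is read from the call. Without early 2-cell replicate 1, neither copy had the 10 counts that a test needed and the pair's ratio was 29.7. It was 99.1 without early 2-cell replicate 2 and 32.6 without zygote replicate 2.

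In late 2-cell DMSO-treated embryos of the A-485 experiment, the pair's reads were assigned mainly to Hba-a2. The level of Hba-a2 was 2.82 FPKM (23.00 counts) in replicate 1 and 3.81 FPKM (25.94 counts) in replicate 2, both above the early 2-cell libraries. That of Hba-a1 was 0 and 0.72 FPKM (4.06 counts), both below the early 2-cell libraries. RSEM's share of the pair given to Hba-a2 was 26.2% and 45.5% in the early 2-cell libraries and 100% and 86.5% in the late ones, with a posterior SD of the Hba-a2 count between 0.29 and 2.58 in these 4 libraries. Neither copy was called against early 2-cell, where 24.8% of 20326 tested genes were, 15.9% higher and 8.92% lower. The log2 fold change was 1.83 for Hba-a2 (adjusted p = 0.167) and −2.90 for Hba-a1 (adjusted p = 0.206), both by edgeR's quasi-likelihood test. With the copies summed it was 0.21 with an adjusted p of 0.868 by edgeR, and the pair's ratio was 1.16 (95% exact interval 0.767 to 1.75). The ratio was 2.50 without early 2-cell replicate 1 and below 1 without early 2-cell replicate 2 (0.749) or late 2-cell replicate 2 (0.921).

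The late 2-cell DMSO-treated libraries were assigned to the TSA or the A-485 experiment by the wording of their titles. Those of the TSA experiment had less alpha-globin RNA than those of the A-485 experiment. Hba-a2 was at 0.57 FPKM (6.00 counts) in replicate 1 and 1.29 FPKM (13.00 counts) in replicate 2, below both libraries of the other control, and Hba-a1 was at 0 counts in both. The pair summed to 19 against 53 counts, a ratio of 0.296 (95% exact interval 0.165 to 0.508, counting error only), and of 0.180 without replicate 2 of the TSA experiment. Between libraries the difference in Hba-a2 was not called (log2 fold change −1.62 ± 0.82 SE, adjusted p = 0.419 by edgeR's quasi-likelihood test), where 1.32% of 20647 tested genes were called, 1.19% higher and 0.136% lower. When these libraries stood for late 2-cell in the comparison with early 2-cell, a choice made after the data were seen, Hba-a1 was called lower in edgeR (log2 fold change −7.18, adjusted p = 0.0134) and Hba-a2 was not (0.24, adjusted p = 0.890). These comparisons share their DMSO-treated libraries with one another.

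After TSA treatment, both Hba-a1 and Hba-a2 were higher in late 2-cell embryos than in any other group. The level of Hba-a2 was 35.43 FPKM (263 counts) in replicate 1 and 39.80 FPKM (317.81 counts) in replicate 2, against 0.57 and 1.29 FPKM in the DMSO-treated libraries. That of Hba-a1 was 7.85 FPKM (67.00 counts) and 5.84 FPKM (45.19 counts), against 0 in both DMSO-treated libraries. Every TSA-treated library thus lay above every DMSO-treated library, for each copy.

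The pair summed to 43.3 and 45.6 FPKM after TSA treatment, a mean of 44.5 ± 1.67 FPKM (SD, n = 2) against 0.930 ± 0.509 FPKM (SD, n = 2). In CPM this was a ratio of 48.9 (95% exact interval 31.0 to 81.7, counting error only). For Hba-a1 alone, the level after TSA treatment was at least 25.1-fold higher than 3 counts in each DMSO-treated library. For Hba-a2 alone the log2 fold change was 4.97 ± 0.39 (SE). Without DMSO replicate 2 the pair's ratio was 80.1. Both copies were past the thresholds of a call, as were 27.7% of the 23429 genes tested, 13.8% higher and 13.9% lower. The choice of the genes used this comparison, so the count is no test of them. RSEM gave 79.7% and 87.6% of the pair to Hba-a2, with a posterior SD of 4.07 and 3.09 counts.

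The 4 beta-like genes had no count beside this. In the same TSA-treated libraries, 3 counts of Hbb-bs would be 0.529 and 0.486 FPKM, 3 counts of Hbb-bt 0.294 and 0.275 FPKM, 3 counts of Hbb-y 0.337 and 0.314 FPKM and 3 counts of Hbb-bh1 0.352 and 0.328 FPKM. Alpha-like and beta-like RNA, which red cells hold together, were thus far apart here, at 693 counts of the alpha pair and 0 counts of the 4 beta-like genes.

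After A-485 treatment, the alpha pair was lower at both 2-cell stages. At early 2-cell, Hba-a1 and Hba-a2 were each at 0.45 FPKM (3.00 counts) in replicate 1 and 0.07 FPKM (0.50 counts) in replicate 2, against 3.48 and 0.91 FPKM of Hba-a1 and 1.23 and 0.63 FPKM of Hba-a2 in DMSO-treated embryos. The groups did not overlap for either copy. For Hba-a2 the nearest libraries were at 0.63 FPKM (5.00 counts) and 0.45 FPKM (3.00 counts), with an uncertain division between the copies. The share of all genes without overlap was not counted for this or any other comparison. Nothing is therefore read from a lack of overlap, here or for the other genes described. The pair summed to 7 against 47 counts, and was 7.16-fold lower in CPM (95% exact interval 3.21 to 18.8, counting error only). This size rested on single libraries. It was 3.32-fold without DMSO replicate 1, 11.1-fold without DMSO replicate 2, 25.8-fold without A-485 replicate 1 and 4.04-fold without A-485 replicate 2. The log2 fold changes were −3.41 ± 1.57 (SE) for Hba-a1, from −7.12 to −2.43 over the alternatives, and −2.17 ± 2.01 (SE) for Hba-a2, from −5.89 to −1.20. Neither copy was past the thresholds of a call, where 8.3% of 20872 tested genes were called, 0.402% higher and 7.9% lower.

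At late 2-cell, after A-485 had been removed, Hba-a2 was at 0.10 FPKM (0.45 counts) in replicate 1 and 0 in replicate 2, against 2.82 and 3.81 FPKM in DMSO-treated embryos, without overlap. Hba-a1 was at 0.24 FPKM (1.55 counts) and 0.47 FPKM (2.00 counts), against 0 and 0.72 FPKM, and these groups overlapped. The pair summed to 4 against 53 counts and was 8.81-fold lower in CPM (95% exact interval 3.25 to 33.5, counting error only). Hba-a2 was past the thresholds of a call, as were 27.3% of 22822 tested genes, 10.5% higher and 16.8% lower, and this count too is no test, since the choice used the comparison. It was not past them without DMSO replicate 2 or with the copies summed, where the log2 fold change was −3.28. The level after A-485 treatment was thus low at both stages, 0.520 ± 0.537 FPKM of the pair at the early and 0.405 ± 0.0919 FPKM at the late stage (SD, n = 2 each).

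**Figure D1:**
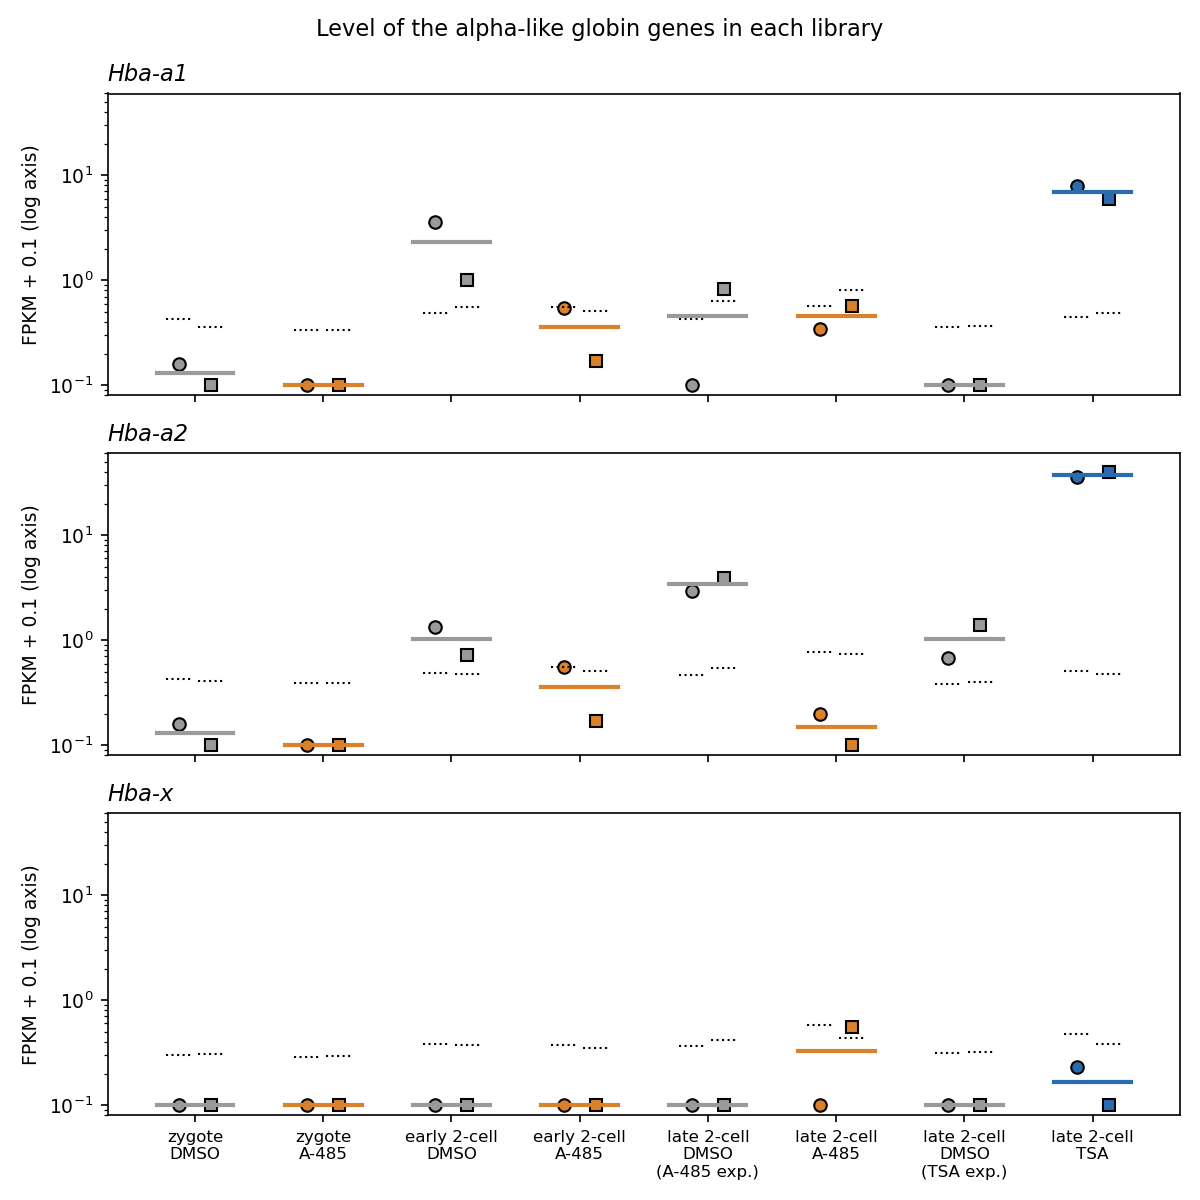
Levels of Hba-a1, Hba-a2 and Hba-x as FPKM + 0.1 on a log axis in 8 groups. Circles are replicate 1, squares replicate 2, thick lines group means and dotted lines the level that 3 counts would give in that library. TSA-treated libraries lie between 35.43 and 39.80 FPKM of Hba-a2, and A-485-treated libraries at or below 0.47 FPKM of Hba-a1 and 0.45 FPKM of Hba-a2.

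In order of the mean summed level of the pair, the groups were late 2-cell TSA (44.5 FPKM), late 2-cell DMSO of the A-485 experiment (3.68), early 2-cell DMSO (3.13), late 2-cell DMSO of the TSA experiment (0.930), early 2-cell A-485 (0.520), late 2-cell A-485 (0.405), zygote DMSO (0.0600) and zygote A-485 (0). TSA stood clear of its neighbour in this order. The next neighbours, late and early 2-cell DMSO, overlapped, with 2.82 to 4.53 FPKM and 1.54 to 4.71 FPKM. The control of the TSA experiment overlapped A-485-treated early 2-cell embryos, at 0.57 to 1.29 FPKM against 0.14 to 0.90 FPKM, and the A-485-treated stages overlapped each other.

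Open chromatin at the clusters was compared from the peak lists, 1 per stage and treatment over both replicates, without a replicate test. No peak lay within 100 kb of the beta-globin cluster in any of the 4 lists, and the peaks nearest to the beta-like starts were 346672 to 404642 bases away. The alpha-globin cluster had 2 peaks within 50 kb in late 1-cell DMSO-treated embryos, 1 after A-485 treatment, and 6 at early 2-cell under either treatment. The lists differed in size, with 10214, 7094, 27693 and 13712 peaks in the same order.

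A peak over the first exon and promoter of Nprl3, the gene upstream whose introns hold the alpha-globin enhancers in erythroid cells, was in all 4 lists, with a fold enrichment of 6.44 and 6.35 in late 1-cell DMSO- and A-485-treated embryos and of 6.32 and 11.5 at early 2-cell. A peak over Hbq1b, a theta-globin gene between the copies, was in the late 1-cell DMSO list and both early 2-cell lists, but not in the late 1-cell A-485 list. Peaks in the introns of Nprl3, at chr11:32246161-32246673 and chr11:32264784-32265318, were in the early 2-cell DMSO list alone. They lay 29727 and 11082 bases from the start of Hba-x.

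At the start of Hba-a2 itself, the early 2-cell A-485 list had a peak at chr11:32296247-32296631 (fold enrichment 5.83), over the first exon and 242 of the 247 promoter bases shown above, which no other list had. The A-485 list also had a peak over Hbq1a, at chr11:32299919-32300523. The DMSO list had instead a peak at chr11:32293113-32293395 (fold enrichment 10.3), 3094 bases upstream of Hba-a2 and outside any annotated gene. Repeat-masked bases made up 90.8% of it, and it held none of the 4 motifs. It is shown because it was the peak nearest to an alpha-globin start in DMSO-treated early 2-cell embryos.
DMSO early 2-cell peak, plus strand: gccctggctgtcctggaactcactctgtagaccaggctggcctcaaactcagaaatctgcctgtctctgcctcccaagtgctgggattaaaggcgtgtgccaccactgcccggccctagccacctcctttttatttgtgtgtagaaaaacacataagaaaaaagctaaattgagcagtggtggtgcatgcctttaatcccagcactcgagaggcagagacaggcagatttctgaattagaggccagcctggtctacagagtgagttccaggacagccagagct

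Within 1 kb of its start, 1 of the 7 members (Hba-a2) had a peak in early 2-cell A-485-treated embryos, where 37.4% of 21938 protein-coding genes did. None had one in the other 3 lists, where 22.8% to 27.7% of protein-coding genes did. The promoter bases under this peak are identical in Hba-a1, so its placement at Hba-a2, and the lack of one at Hba-a1, are uncertain in the same way as the RNA of the copies.

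**Figure D2:**
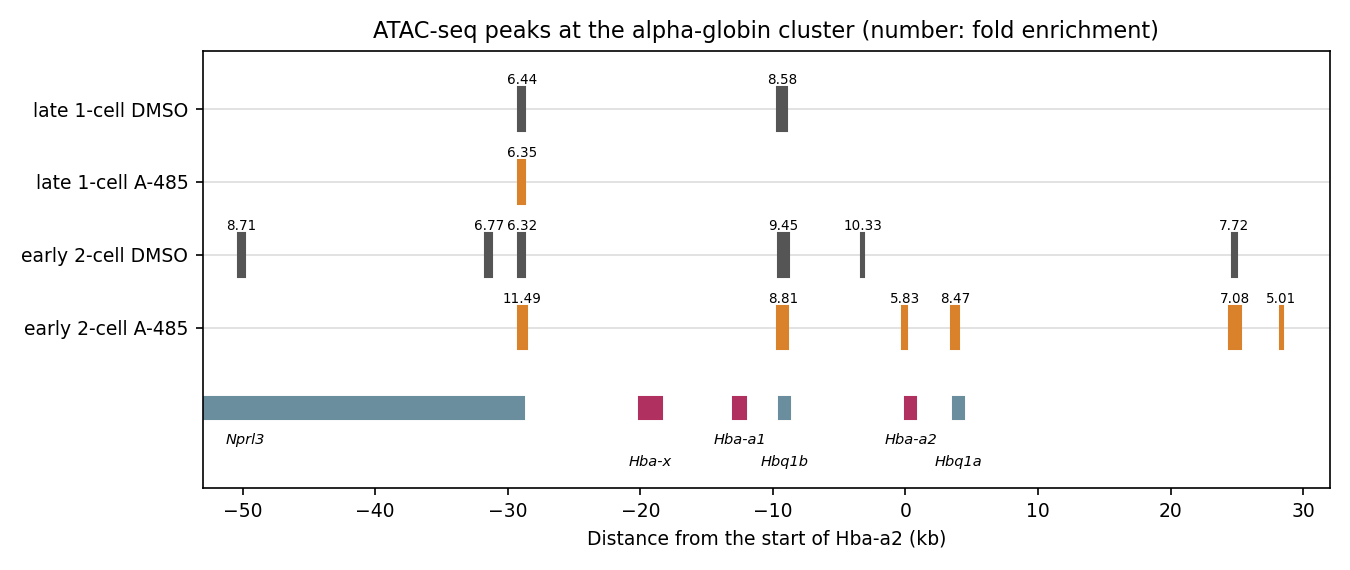
ATAC-seq peaks of 4 lists around the alpha-globin cluster, plotted by distance in kb from the start of Hba-a2, with genes below and the fold enrichment above each peak. The early 2-cell A-485 list has a peak at the Hba-a2 start and the early 2-cell DMSO list has one 3094 bases upstream.

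The counts of called genes in the lists that follow stand beside shares over all genes tested of 13.8% higher and 13.9% lower after TSA treatment, 0.402% and 7.9% after A-485 treatment at early 2-cell, and 10.5% and 16.8% after A-485 treatment at late 2-cell. Among the erythroid transcription factors that switch globin genes on or off, 17 of 18 were tested after TSA treatment, of which 7 were called higher and 4 lower, with a median log2 fold change of 1.69 against 0.13 over all genes tested. Gata2, the GATA factor of blood progenitors, was at 109.72 and 110.72 FPKM after TSA treatment against 3.05 and 3.35 FPKM (log2 fold change 4.73 ± 0.098 SE). Runx1, a master factor of blood stem cell emergence, was at 7.22 and 7.42 against 0.21 and 0.30 FPKM (4.86 ± 0.25 SE). Myb, a progenitor factor, was at 5.72 and 6.16 against 0.12 and 0.24 FPKM (4.86 ± 0.31 SE). Lmo2, a bridging subunit of the GATA1–TAL1 complex, was at 3.65 and 2.36 against 0.03 and 0.12 FPKM (4.78 ± 0.70 SE). All TSA-treated libraries lay above the DMSO-treated ones for these 4 genes.

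Gata1, the main activator of globin genes in red cells, went the other way. It was named after its values were seen in this comparison, where it was at 4.31 and 2.80 FPKM after TSA treatment against 24.53 and 22.21 FPKM (log2 fold change −2.76 ± 0.22 SE). Klf1, the activator of adult beta-globin and also named after its values were seen, stayed at or below 0.41 FPKM in each of the 16 libraries. Alpha-globin RNA was highest in the group with the highest Gata2 and a Gata1 level below that of its control. Runx1, Myb and Lmo2 were also highest in that group. Gata2, Runx1, Myb and Lmo2 were, however, also called higher after A-485 treatment at late 2-cell, where the alpha pair was low. The log2 fold change there was 1.08 for Gata2, 3.38 for Runx1 and 2.41 for Myb. A link of any of these factors to the alpha-globin level was not tested.

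At late 2-cell after A-485 treatment, 6 of 18 factors were called higher and 4 lower, with a median log2 fold change of 0.51 against 0.28 over all genes. Gata1 was at 0.09 and 0.63 FPKM against 23.53 and 20.30 FPKM (−5.74 ± 0.51 SE). Tal1, the partner of GATA1 and LMO2, was at 2.73 and 2.11 against 0.11 and 0 FPKM (5.65 ± 0.83 SE). Bcl11a, a repressor of embryonic globin genes, was at 11.31 and 10.26 against 0.10 and 0.35 FPKM (5.25 ± 0.45 SE). It was called higher after TSA treatment as well (4.26 ± 0.39 SE). Lmo2, with 36 and 21 counts against 0, was at least 14.4-fold higher than 3 counts in each DMSO-treated library. Factors of this list were thus called in both directions while alpha-globin RNA was low. At early 2-cell, A-485 treatment gave 0 higher and 3 lower of 15 tested, Gata2 (−2.91 ± 0.26 SE), Zbtb7a (−2.08 ± 0.24 SE) and Nr2c2 (−1.31 ± 0.25 SE). Zbtb7a and Nr2c2 repress globin genes in red cells. Both were also called lower after TSA treatment (−1.07 and −1.56), where alpha-globin RNA was high.

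**Figure D3:**
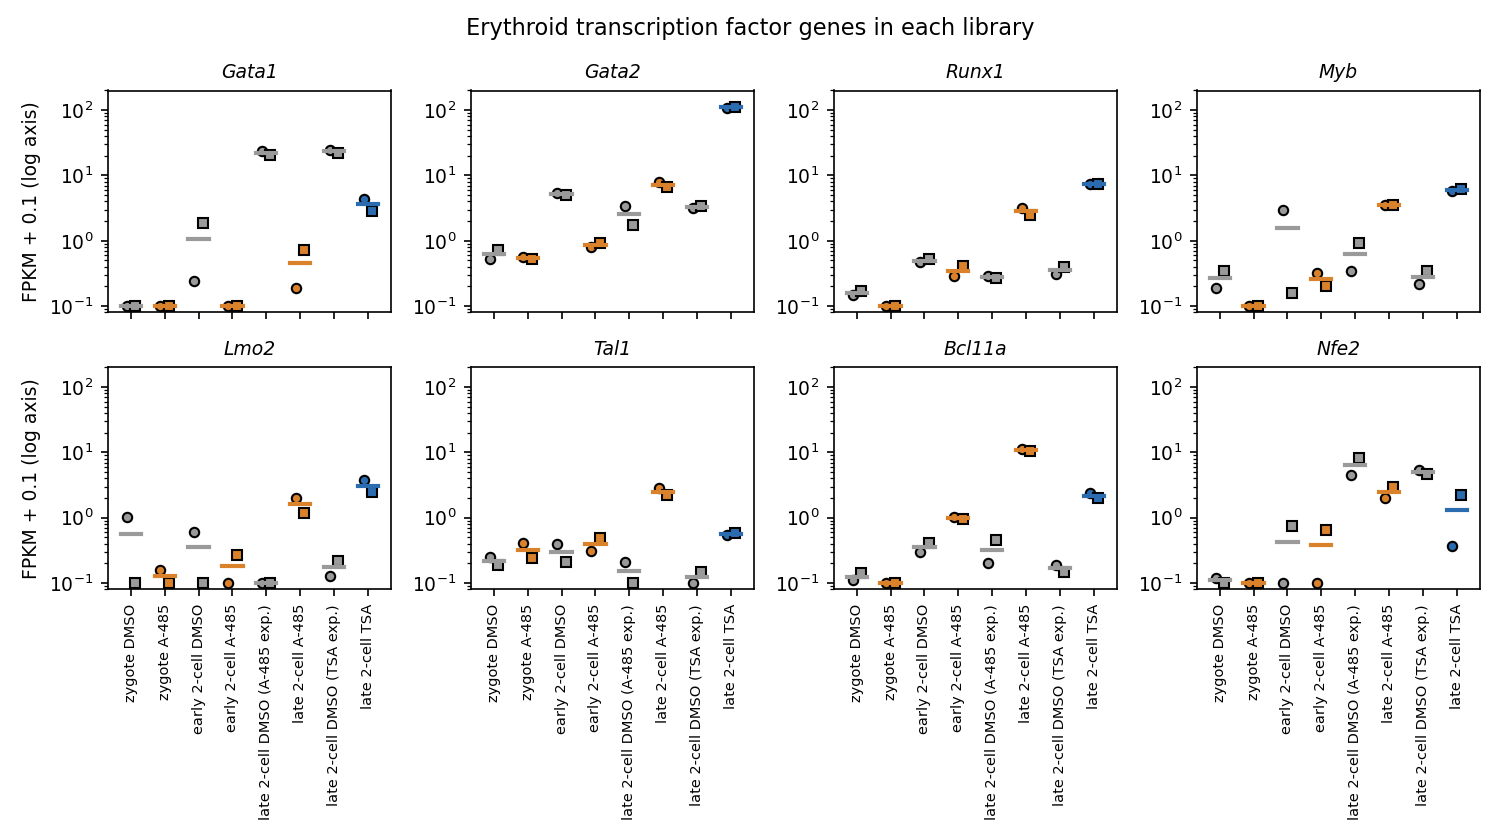
Levels of 8 erythroid transcription factor genes as FPKM + 0.1 on a log axis in 8 groups, with circles for replicate 1, squares for replicate 2 and lines for group means. Gata2 reaches 110.72 FPKM after TSA treatment, and Gata1 lies between 20.30 and 24.53 FPKM in late 2-cell DMSO-treated libraries and at or below 4.31 FPKM after either inhibitor.

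Of the 13 genes of heme synthesis and its iron supply, 2 were called higher and 3 lower after TSA treatment, with a median log2 fold change of −0.09. Alas2, the erythroid form of the first enzyme of the pathway, was at 1.34 and 1.11 FPKM against 0.21 and 0.07 FPKM (4.12 ± 0.73 SE). Slc25a37, or mitoferrin 1, which carries iron into mitochondria of red cell precursors, had 47.47 and 45.90 counts against 0 and was at least 20.8-fold higher than 3 counts in each DMSO-treated library. Alad (−1.62 ± 0.49 SE), an enzyme that follows in the pathway, was called lower. The erythroid-specific first step and iron carrier thus rose while other steps fell.

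After A-485 treatment at late 2-cell, 1 of 12 tested genes of this list was called higher and 5 lower. Slc25a28, or mitoferrin 2, was called lower (−2.79 ± 0.24 SE), as were Alas1, the first enzyme outside red cells (−2.26 ± 0.31 SE), and Urod (−2.13 ± 0.37 SE), while Fech, which inserts the iron, was called higher (1.70 ± 0.34 SE). At early 2-cell 0 were called higher and 2 lower, Alas1 (−2.998 ± 0.29 SE) and Slc25a28 (−1.41 ± 0.27 SE). After A-485 treatment in zygotes none of the genes tested in the erythroid lists was called.

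Of the 28 genes of erythroid maturation and membrane, 21 were tested after TSA treatment, 2 of which were called higher and 1 lower. Blvrb, a heme-handling reductase abundant in red cells, was higher (5.18 ± 0.34 SE), as was Slc2a1, a glucose transporter of many cells (2.08 ± 0.26 SE). Tfrc, the transferrin receptor, was lower (−1.82 ± 0.070 SE). After A-485 treatment at late 2-cell 2 of 22 were called higher and 2 lower. Epor, the erythropoietin receptor, had 0 counts in the DMSO-treated libraries and was at least 11.3-fold higher than 3 counts in each. Tfrc (−2.45 ± 0.11 SE) and Dmtn, a membrane skeleton protein (−1.71 ± 0.40 SE), were lower. At early 2-cell only Tfrc (−2.35 ± 0.19 SE) of 22 tested was called.

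Of the 13 genes of heme breakdown and iron handling, 3 were called higher and 1 lower of 12 tested after TSA treatment. Slc40a1, the iron exporter ferroportin (3.09 ± 0.27 SE), Hmox1, the inducible heme oxygenase (2.47 ± 0.30 SE), and Aco1, an iron-sensing protein (1.43 ± 0.25 SE), were higher, and Hmox2, the constitutive heme oxygenase (−1.84 ± 0.19 SE), was lower. After A-485 treatment at late 2-cell, 1 of 12 was called higher, Slc40a1 (2.62 ± 0.56 SE), and 2 lower, Hmox2 (−3.66 ± 0.37 SE) and the iron transporter Slc11a2 (−1.22 ± 0.32 SE). At early 2-cell Hmox1 was the 1 gene of 11 tested that was called (−2.46 ± 0.44 SE).

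Of 7 genes that neighbour the alpha-globin cluster, 3 were called higher and 0 lower after TSA treatment (13.8% and 13.9% over all genes), with a median log2 fold change of 1.64 against 0.13 over all genes. They were Mpg, a DNA glycosylase (2.92 ± 0.66 SE), Sh3pxd2b, an adaptor protein (2.59 ± 0.43 SE), and Rhbdf1, a rhomboid-like protein (1.95 ± 0.36 SE). Nprl3, next to Hba-x and not named by the rule, was at 1.63 and 0.32 FPKM after TSA treatment against 1.12 and 0.40 FPKM, and these groups overlapped. After A-485 treatment at late 2-cell Mpg was called higher (2.31 ± 0.65 SE) and Snrnp25, a spliceosome gene, lower (−3.87 ± 0.81 SE) of 6 tested, and at early 2-cell none of 7 was. Among the 10 other globin genes and pseudogenes, 2 were tested after TSA treatment and none was called, and Hbq1b and Hbq1a were listed at 0 in both TSA-treated libraries.

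**Figure D4:**
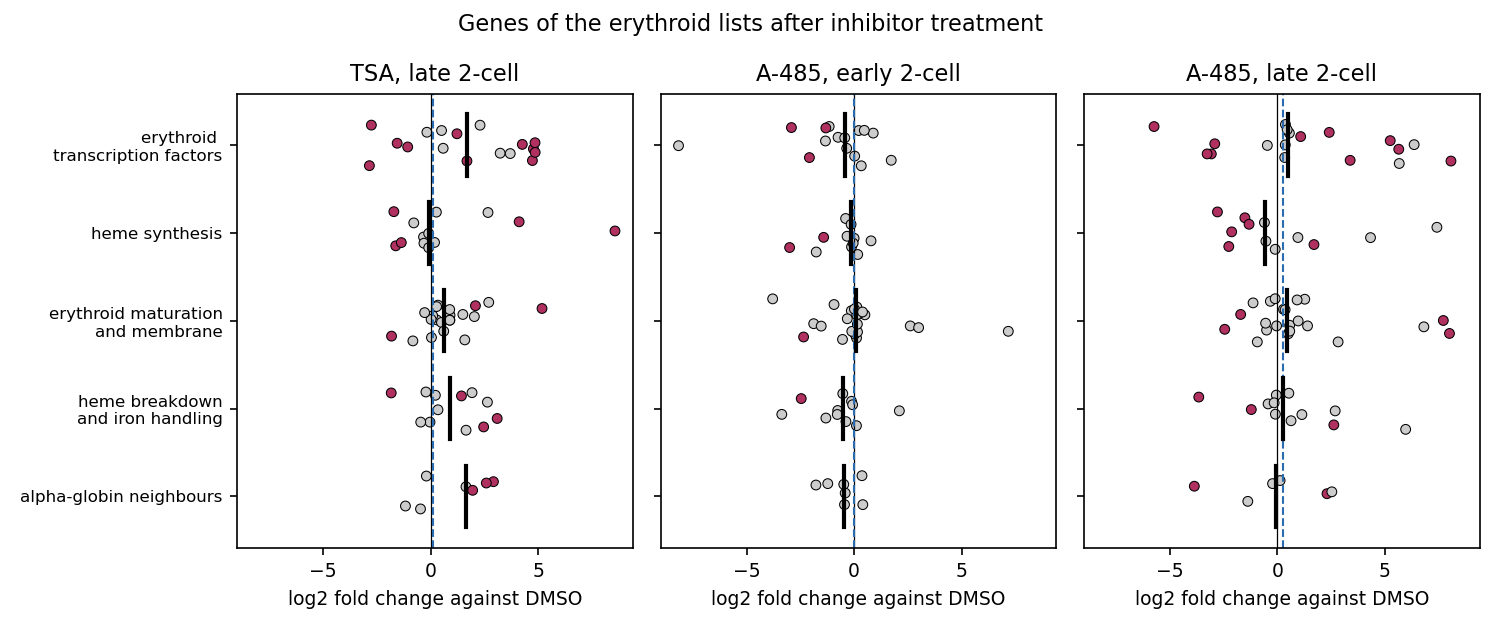
Fitted log2 fold change of each tested gene of 5 erythroid lists after TSA treatment and after A-485 treatment at 2 stages, with called genes in red, list medians as thick lines and the median of all genes as a dashed line. For genes with 0 counts in DMSO-treated libraries the fitted size depends on the prior count. Of the transcription factors, 7 are called higher and 4 lower after TSA treatment.

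Markers of other cells were read beside the alpha-globin values. Of 12 erythroid cell markers, 11 were listed, and after TSA treatment 7 were tested, 1 of which was called higher (Alas2) and 1 lower (Gata1). They summed to 5.74–8.25 FPKM after TSA treatment and 22.8–25.3 FPKM in its control, most of it Gata1. Rhag and Cldn13, defining membrane genes of red cells, were listed at 0 in all 16 libraries. Of 10 white blood cell markers, 6 were tested and 4 called higher after TSA treatment (Cd74, Lyz2, Coro1a and Laptm5), with a sum of 15.4–15.7 FPKM against 2.55–2.69 FPKM. Ptprc (CD45) was at 0.38 and 0.11 FPKM, and S100a8, S100a9 and Tyrobp were listed at 0 in all libraries.

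The other marker lists moved less evenly after TSA treatment. Fibroblast markers had 3 of 4 tested called higher, with a sum of 9.70–10.8 FPKM against 1.09–1.98 FPKM, from Pdgfra, Thy1 and Col1a1, while Dcn, Lum and Fap were listed at 0, cumulus cell markers 0 higher and 1 lower of 8, sperm markers none of 6, oocyte and zygote markers 0 higher and 1 lower of 10, and 2-cell markers 4 higher and 1 lower of 10. After A-485 treatment at late 2-cell, fibroblast markers had 1 higher of 2 (Pdgfra, at 13.94 and 15.94 FPKM against 0.08 and 0.54 FPKM, with each other marker at or below 0.28 FPKM), cumulus cell markers 2 higher and 1 lower of 7, sperm markers none of 2, white blood cell markers 1 lower of 4 and oocyte and zygote markers 1 higher of 10. At early 2-cell white blood cell markers had 2 lower of 4, and erythroid, fibroblast, cumulus and sperm markers none. The part of white blood and fibroblast markers in the alpha-globin values was not tested.

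The 5 genes whose level over the 16 libraries was most like that of the alpha pair, by Pearson r of log2(FPKM + 0.1) among 19723 genes, were Unc5b (0.9502), Osr2 (0.942), Mmp15 (0.938), Itm2a (0.938) and Cidea (0.937). The libraries share stages and treatments, so r is a description. Unc5b, a netrin receptor, had a mean of 17.8 FPKM after TSA treatment, 2.1 in its control, 2.80 in the late 2-cell control of the A-485 experiment and 0.590 after A-485 treatment. With a pseudocount of 1, only Unc5b of the 5 remained among the top 5. No gene could be named for the beta-like members, whose summed level was 0 throughout.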

How the data were processed

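The 16 total RNA-seq libraries were made with the SMART-Seq Stranded Kit. The authors trimmed reads with Trimmomatic 0.39, mapped them to GRCm38 with STAR 2.7.8a and quantified genes with RSEM 1.3.1. They deposited, per gene and library, the expected count (not normalized), the FPKM, the effective length and the posterior SD of the count. ATAC-seq peaks came from the ENCODE pipeline, and the authors deposited a single list for both replicates of each stage and treatment. Each peak has a score, a fold enrichment (a ratio) and a −log10 q as the authors' pipeline wrote them. The build of the peaks is not given in the ATAC-seq methods. The labels name GRCm38 and mm10, and no peak on chromosomes 7 and 11 ended past their GRCm38 lengths.

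Identifiers were matched to GENCODE M21 symbols (55144 of 55385, without Ahsp). Expected counts were rounded. In R 4.3.3, edgeR 4.0.16 (TMM, quasi-likelihood test) was fitted to each comparison's 4 libraries, keeping genes whose counts summed to 10 or more, with Benjamini-Hochberg adjustment over all genes tested. SE is the log2 fold change divided by the root of F. The method was tested on simulated counts. Changes were placed there only in genes above the level of each member in DMSO-treated libraries, so it does not cover the members. Promoter sequences came from RefSeq and were searched with Python 3.11.15 and biopython 1.88. The members and lists were chosen with earlier results of these data known. Per list and inhibitor comparison, the called genes with the largest absolute log2 fold change, at most 4, were named, except some that are not reported here. Alternatives were DESeq2 1.42.0, other scalings, filters and fits, each library left out, and the copies summed. Intervals and floors of 3 counts cover counting error only. The H3K27ac samples were not used here.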

Additional observations from a re-analysis of the deposited data

Results flagged for a closer look

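Gata2, in the list of erythroid transcription factors, moved in opposite directions after A-485 treatment at the 2-cell stages, and in each stage both treated libraries lay on one side of both DMSO-treated libraries. At early 2-cell it was at 0.71 and 0.81 FPKM after A-485 treatment against 5.26 and 4.88 FPKM (log2 fold change −2.91). At late 2-cell it was at 7.82 and 6.46 FPKM against 3.28 and 1.67 FPKM (log2 fold change 1.08). The difference between the stages was not tested.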

How the results depend on the processing

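The number of members called moved with few choices. With the copies summed it was 1 in place of 2 after TSA treatment and 0 in place of 1 after A-485 treatment at late 2-cell, since the sum has 1 feature. Leaving out libraries gave 0 to 1 member called after A-485 treatment at late 2-cell (0 without DMSO replicate 2) and 0 to 1 for early 2-cell against zygote in DMSO (0 without early 2-cell replicate 1). With the late 2-cell DMSO libraries of the TSA experiment, added after the data were seen, 1 was called in place of 0 for late against early 2-cell. That member, Hba-a1, had 0 counts in those libraries and could only be called lower. Within 5 kb of the start, 1 member had a peak in late 1-cell DMSO and 2 in each early 2-cell list, in place of 0, 0 and 1. Within 100 kb the alpha cluster had 2 peaks in place of 1 in late 1-cell A-485. The other 87 counts of members called, 52 counts over the erythroid lists and 20 counts of peaks stayed within 1.5 times. Over the alternatives, 108 log2 fold changes of members kept their call, 3 gained and 2 lost it, and none changed sign.

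The labels do not say that a replicate number marks a shared culture or day. Same-numbered libraries deviated together in the TSA experiment (correlation of deviations 0.479) and not in the other comparisons (−0.033 to 0.016), and 2 pairs do not show a pairing. With the replicate number as a block the members called were 2 after TSA treatment, 0 and 1 after A-485 treatment at early and late 2-cell, and 1 for early 2-cell against zygote, as without it. Over the 5 erythroid lists it called 26 genes after TSA treatment and 25 after A-485 treatment at late 2-cell, the counts without it, and 8 in place of 7 at early 2-cell. Depth limits the beta-like genes and Hba-x, and zygotes, where no member could be tested.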

Other observations

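Genes of the erythroid lists also changed with stage in DMSO-treated embryos of the A-485 experiment, by edgeR's quasi-likelihood test over all genes. From zygote to early 2-cell, Gata2 (log2 fold change 3.44, adjusted p = 3.63e-07), Hmox1 (3.90, adjusted p = 6.16e-06) and Slc40a1 (5.18, adjusted p = 0.000189) were called higher, and Alad (−3.35, adjusted p = 8.1e-06) and Uros (−2.21, adjusted p = 0.00649), enzymes of heme synthesis, lower. From early to late 2-cell, Gata1 (4.21, adjusted p = 0.000165), Nfe2 (4.61, adjusted p = 0.000677), Nr2c2 (3.24, adjusted p = 1.03e-07) and Slc25a28 (2.15, adjusted p = 1.96e-06) were called higher, and Hmox1 (−1.35, adjusted p = 0.0196) and Gata2 (−1.05, adjusted p = 0.0251) lower. These genes were chosen after their values were seen. Gata1 was at 23.53 and 20.30 FPKM in the late 2-cell libraries, where the alpha pair was at 2.82 and 4.53 FPKM and no beta-like gene had a count.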
